A study of Homo sapiens with 6 samples.

Results

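The clustered protocadherins were described in the merged transcript assembly of a study of EndoC-βH1 cells, a human pancreatic beta cell line. Members were the chromosome 5 models whose gene name is PCDHA, PCDHB, PCDHGA or PCDHGB with a number, or the C-type names PCDHAC and PCDHGC with a number. Names ending in P were left out. This gave 55 gene names of the 25211 in the assembly, with 98 transcript models of 55083. The study compared 3 libraries in which a lentiviral short hairpin RNA against the insulin (INS) promoter was induced with doxycycline at 1 mg/mL for 7 days with 3 negative control libraries that received no doxycycline. All 6 libraries came from this 1 cell line. The labels do not say outright whether the control cells also carried the viral construct, and they list no group with doxycycline but without the hairpin. The only values in the file are exon positions on hg19. It holds no read count or abundance for any library, so the level of a protocadherin, its difference between the groups and the identity of the cells by marker genes were not analysed here. Sequencing depth is unknown, and nothing below has a replicate, an error between libraries or a direction between the groups. None of it shows that a gene was transcribed in these cells.

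Protocadherins are cell surface proteins of the cadherin superfamily, best known from the nervous system, where each neuron uses a small set of them as a surface identity. The extracellular part binds the same isoform on a neighbouring cell. In the alpha and gamma clusters each gene supplies its own long first exon, which has its own promoter and encodes the extracellular part, the membrane span and the start of the cytoplasmic part. That exon is spliced to a set of exons shared by the whole cluster, which encode the common end of the cytoplasmic part. Beta genes lack such shared exons. The choice of promoter is known to involve the DNA-binding protein CTCF and the ring-shaped complex cohesin.

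The assembly carried this layout in full, in models that all bear the names of RefSeq transcripts. The alpha cluster held PCDHA1 to PCDHA13 followed by the C-type genes PCDHAC1 and PCDHAC2. The beta cluster held PCDHB1 to PCDHB18, and the gamma cluster held PCDHGA1 to PCDHGA12, PCDHGB1 to PCDHGB7 and the C-type genes PCDHGC3, PCDHGC4 and PCDHGC5. All 55 names lay on the plus strand within 726828 bases. The alpha locus ran from 140165721 to 140391929 and the gamma locus from 140710252 to 140892548 on chromosome 5 (hg19). The beta genes lay between them from 140430961 to 140627801, with 39031 bases free of members before them and 82450 bases after them. The gamma A and gamma B genes alternated along much of the cluster, and a gamma A gene was followed directly by a gamma B gene at 7 places.

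**Figure D1:**
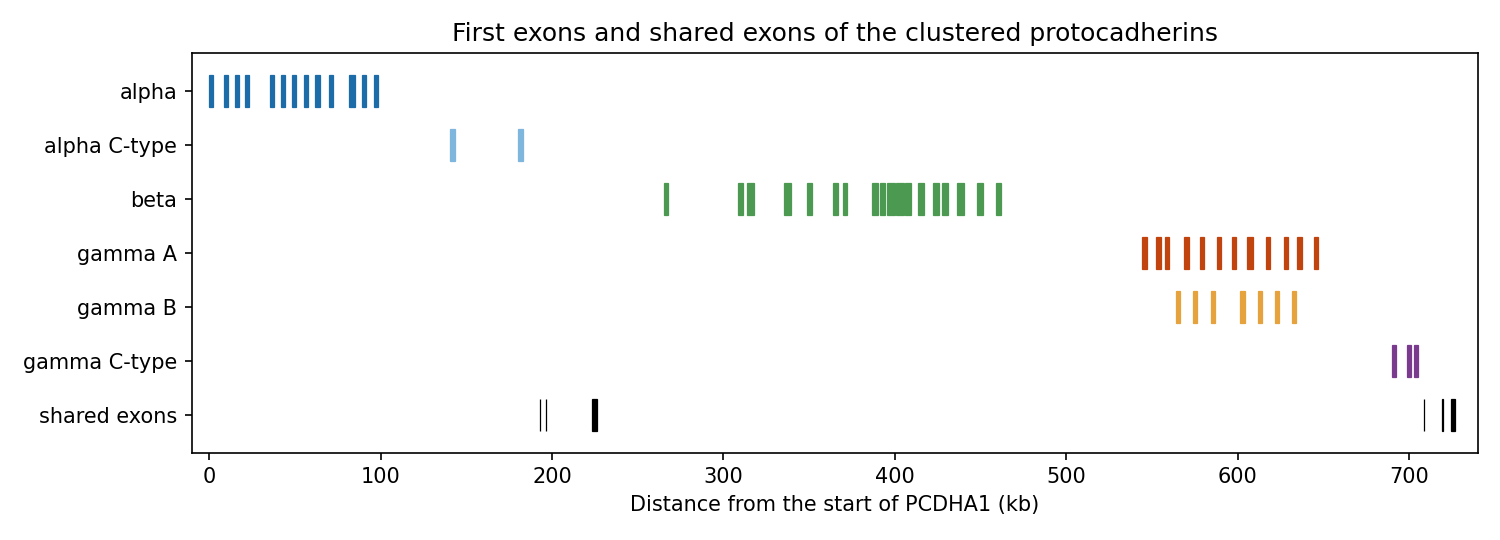
Position of the first exon of each of the 55 genes, by family, and of the 3 shared exons of the alpha and of the gamma cluster, in kilobases (kb) from the start of PCDHA1. The shared exons stand after the C-type genes in both clusters, and the gamma A and gamma B exons interleave.

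Between the shared exons of the alpha cluster and those of the gamma cluster, the layout was the same. Each cluster had 3 shared exons, of which the first measured 59 bases and the second 89 bases in both. The third measured 2718 bases in the alpha cluster and 2033 bases in most gamma models. All 15 alpha names used the alpha set (starting at 140358534, 140362060 and 140389212), and all 22 gamma names used the gamma set (starting at 140874374, 140884960 and 140890514). The first shared exons are shown because every spliced alpha or gamma protein of this layout passes through them. Both are given 5′ to 3′ on the plus strand of GRCh37, with capitals at the bases that differ between them:
alpha shared exon at chr5:140358534-140358592: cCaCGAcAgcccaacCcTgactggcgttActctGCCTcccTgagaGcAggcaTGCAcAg
gamma shared exon at chr5:140874374-140874432: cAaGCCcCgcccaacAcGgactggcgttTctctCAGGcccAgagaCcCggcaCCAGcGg
The bases were equal at 39 of 59 positions (66.1%) in this exon. In the second shared exon, set side by side without gaps, 29 of 89 positions (32.6%) were equal. The equal length of these exons therefore went with a moderately similar sequence in the first and with little similarity in the second.

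The shared exons hold the stop codon of every full-length frame. In each cluster all models that end in these exons read into 1 stop position, which left 2407 bases of the third alpha exon and 1806 bases of the third gamma exon after it. The shared coding part amounted to 152 amino acids in the alpha cluster and 124 in the gamma cluster. The GC content of the third shared exon was 39.3% in the alpha cluster and 56.2% in the gamma cluster. The end of the gamma exon was not identical in all models: 21 of 24 models ended at one base, PCDHGB7 ended 2 bases later and the spliced PCDHGC3 models 2 bases earlier.

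Of the 43 member models with more than 1 exon, 42 ended in the 3 shared exons, 18 in the alpha and 24 in the gamma cluster. The exception was a model of PCDHA2 with 2 exons. Its last exon of 560 bases (140184645 to 140185204) lay 1455 bases before the start of PCDHA4, and its intron of 7707 bases passed over the whole first exon of PCDHA3. The frame of that model ended 39 bases into its own last exon and had 808 amino acids, against 948 in the PCDHA2 model that reaches the shared exons.

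The first exon carried most of the protein. The longest frame of the 37 alpha and gamma names had 923 to 1007 amino acids, and 83.7% to 87.0% of it lay in the first exon (median 86.6%). More than 80% of the frame lay in the first exon in 37 of 37 names, against 1.09% of the 17915 coding genes with several exons in the assembly. The 1.09% includes the members. In the other coding genes with several exons the median was 2.85% for the first exon and 28.0% for the largest exon. Among alpha genes the frame ranged from 936 amino acids in PCDHA5 to 973 in PCDHA12, among gamma A genes from 931 in PCDHGA1 and PCDHGA5 to 962 in PCDHGA4, and among gamma B genes from 923 in PCDHGB4 and PCDHGB5 to 931 in PCDHGB2. Among all members PCDHAC2 had the longest frame, 1007 amino acids, and PCDHAC1 had 963. The C-type gamma genes PCDHGC3, PCDHGC4 and PCDHGC5 had 934, 938 and 944.

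The whole first exon varied more than its coding part. In the alpha and gamma names the exon measured 2352 to 3982 bases, while the coding part within it measured 2352 to 2565 bases. The exon of PCDHA11 was the longest at 3982 bases, of which 1591 preceded the frame, and that of PCDHA5 was the shortest at 2352 bases, all of it coding. PCDHA9 (724 bases before the frame), PCDHGA8 (898 bases) and PCDHAC2 (605 bases) also had long leading parts. The other 33 first exons had at most 258 bases before the frame.

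**Figure D2:**
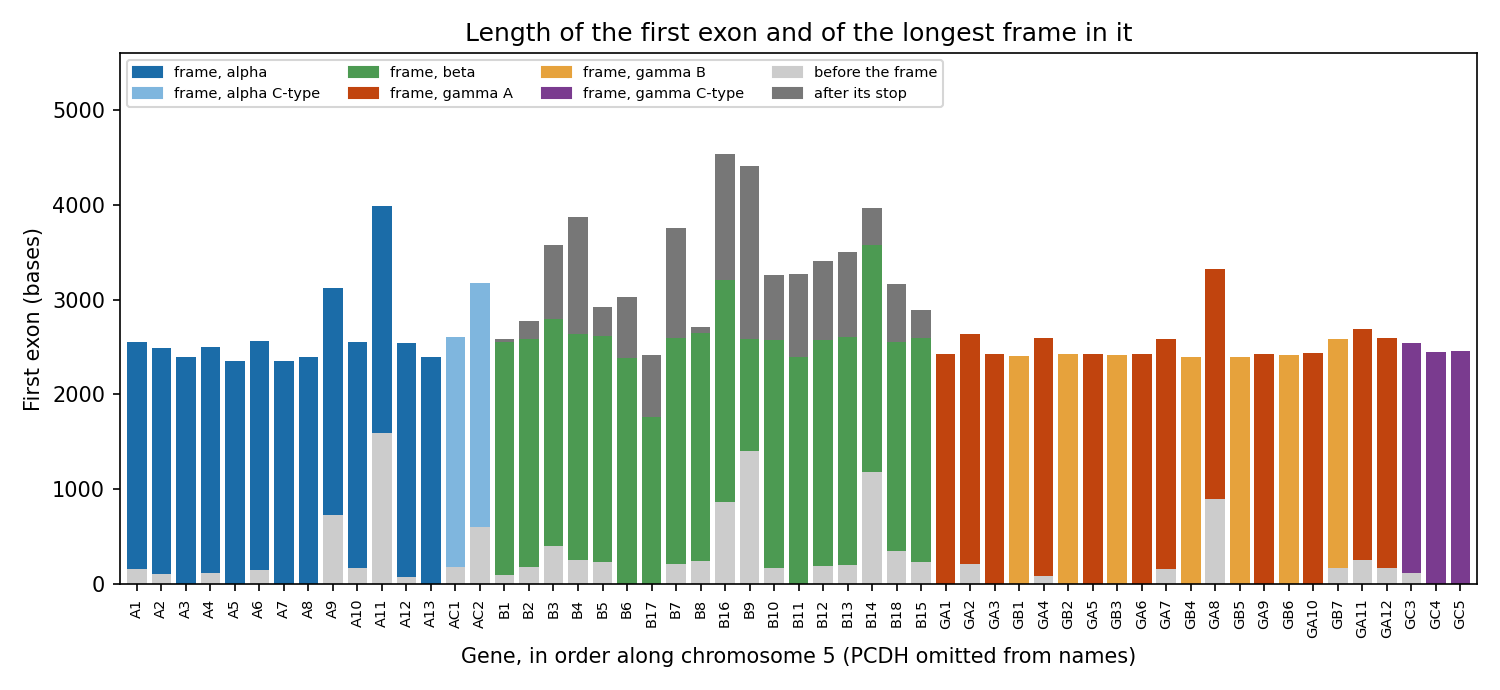
Length in bases of the first exon of the 55 genes in chromosome order, split into the part before the longest frame, the frame and, for beta genes, the part after its stop. The coloured frame is close to 2400 bases in nearly all genes, with PCDHB9 and PCDHB17 as short exceptions and long leading parts at PCDHA11 and PCDHB14. In PCDHB9 the part before the longest frame holds the first of its split frames, of 392 amino acids.

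Each first exon was joined to the shared exons at the same codon boundary. All models of a cluster read into the same stop, and the shared coding part is a whole number of codons. The first intron therefore fell between codons in 42 of 42 models, and this count adds nothing to the shared stop. Any first exon of a cluster could be read on into the shared exons without a shift. The donor dinucleotide was GT in each of the 37 genes. The share of GT over all introns is not given here, so nothing particular to these genes is read from it. The first intron was 94286 to 190264 bases long in the alpha genes and 61623 to 161701 bases in the gamma A genes. It was shorter in the C-type genes, which lie nearest the shared exons: 49623 bases in PCDHAC1, 9617 in PCDHAC2, 16260 in PCDHGC3, 7191 in PCDHGC4 and 3106 in PCDHGC5.

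The 5 bases at the start of that intron read GTGAG more often than in all RefSeq introns counted, most of all in the gamma genes. They read GTGAG in 23 of the 37 genes (62.2%) and GTAAG in 8 (21.6%), against 25.9% and 27.5% of the 219346 distinct RefSeq introns on chromosomes 1 to 22, X and Y. GTGAG stood at 17 of 22 gamma and 6 of 15 alpha genes. GTAAG stood at PCDHA1, PCDHA6, PCDHA8, PCDHA12, PCDHA13 and PCDHAC1 in the alpha cluster and at PCDHGB7 and PCDHGC3 in the gamma cluster. The 6 genes with another start were PCDHA4, PCDHA9, PCDHA10, PCDHGA1, PCDHGA2 and PCDHGA5. Genes of a family arose from common ancestors, so their donors are not independent draws.

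A second donor inside the first exon occurred in 5 genes, each with 1 extra model that still ended in the shared exons. PCDHA1, PCDHA6 and PCDHA10 lost 792, 792 and 789 bases of coding sequence in this way, and their frames had 686, 695 and 685 amino acids in place of 950, 959 and 948. PCDHGA11 lost 555 bases, with a frame of 750 in place of 935. PCDHGC3 lost 2400 bases, which left a first exon of 145 bases and a frame of 134 in place of 934. All 5 stretches were whole multiples of a codon. The donors are shown because the 3 alpha genes share nearly the same inner site, with the intron in capitals:
PCDHA1 inner donor at chr5:140167469-140167486: cagttccagGTGAGCGCG
PCDHA10 inner donor at chr5:140237224-140237241: cagttccagGTGAGCGCG
PCDHA6 inner donor at chr5:140209270-140209287: cagtttcagGTGAGCGCG
PCDHA1 outer donor at chr5:140168261-140168278: tctggtaatGTAAGTCCA
PCDHGA11 inner donor at chr5:140802664-140802681: acgggcgagGTGCGTACA
PCDHGC3 inner donor at chr5:140855705-140855722: agcggactgGTAAGCACC
The inner sites of PCDHA1 and PCDHA10 were identical over these 18 bases. The PCDHGA11 and PCDHGC3 sites had other letters.

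Every alpha and gamma gene also had 1 model of a single exon, 15 in the alpha and 22 in the gamma cluster, which ran past the donor instead of splicing. These models went on for 15 to 3270 bases after the donor (median 90). Their frame then ended after 3 to 58 amino acids of its own (median 13), in place of the 152 or 124 shared ones. In PCDHGC3, PCDHGC4 and PCDHGC5 this private end was long, with 53, 57 and 58 amino acids, and in PCDHA10 and PCDHA9 it had 48 and 44. It was 3 amino acids in PCDHA4, PCDHA12 and PCDHGB7. The PCDHA9 model was the longest of these, with 6388 bases. Of the 37 single-exon models, 22 ended exactly at the last base of their stop codon, and 19 consisted of a frame and nothing else.

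The recorded start was often the start codon itself. Of the 53 names with a protein-coding accession, 22 had a model whose first base was the A of the ATG of its longest frame, against 5.19% of the 19132 coding gene names. They comprised 6 of 7 gamma B, 6 of 12 gamma A, 2 of 3 gamma C-type, 5 of 13 alpha, 1 of 2 alpha C-type and 2 of 16 beta names. In PCDHAC2 the spliced model began 605 bases before the single-exon model, whose first base was the ATG, and the assembly gave the gene 2 start site groups for this reason. GENCODE, a second annotation read on the same build, was compared with the earliest recorded start of each gene. It began upstream of that start in 20 of the 22 names, and the GENCODE start minus the recorded start had a median of -170.5 bases. For PCDHAC2 the earliest start is that of the spliced model and not the ATG, and GENCODE began 308 bases after it. In the 31 other coding names GENCODE began upstream in 11, at the same base in 11 and downstream in 9. The 22 model starts at an ATG thus coincide with the edge of a coding frame.

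The beta genes were single-exon models of 2411 (PCDHB17) to 4532 bases (PCDHB16), with 1 model and 1 locus each. The frame had 776 to 818 amino acids in 15 of the 18. PCDHB17 and PCDHB18 have non-coding accessions, and GENCODE lists the former as a pseudogene and the latter as a long non-coding RNA. Their longest frames were 586 and 734 amino acids. PCDHB9 has a coding accession, but its sequence on GRCh37 was split into a frame of 392 amino acids from base 193 to base 1371 of the exon and another of 394 in a different phase from base 1401 to base 2585. Its coding neighbour PCDHB10 had an unbroken frame of 800 and was 92.8% identical over that stretch.

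Upstream sequence was compared because each gene of the clusters is thought to have its own promoter. A short conserved element is known in most of these promoters, not in all. The 8-base motif CCACGCTG, on either strand, was present in 1 of the 47 members found in the RefSeq promoter table (GRCh38.p14, 300 bases per start), namely PCDHAC1, against 1.62% of the table's 27305 symbols. On the sense strand alone it was again in that 1 gene, against 0.743%. The core CGCT alone, on either strand, was present in 46 of 47, PCDHA9 being the exception, against 71.9% of symbols, and on the sense strand it was again in 46, against 57.7%. So short a word is common, and this share is to be read against that background.

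Because many recorded starts are the ATG, the 500 bases before the ATG of the longest frame were also read on GRCh37 for 53 members. CCACGCTG was again in 1 member, against 2.15% of the 12622 genes with such a window. CGCT was in 51 of 53 on either strand, against 85.8%, and in 51 on the sense strand, against 73.9%; PCDHA9 and PCDHB9 lacked it. In each family the 10-base word containing CGCT that most windows hold was then picked, so its count is a description of these windows and nothing was tested. Among alpha genes it was TGATGTCGCT, in 9 of 13, 113 to 214 bases before the ATG. Among beta genes it was GGTGGCGCTG, in 12 of 16, 224 to 255 bases before it. Among gamma A and gamma B genes it was GCGCCGCTGT, in 10 of 19, 212 to 260 bases before it. On the sense strand these words were found before the ATG of 0.0871%, 0.388% and 0.206% of the 12622 genes, members included, and on either strand before 0.0951%, 0.539% and 0.293%. In the RefSeq table the 3 words were found in 8, 12 and 9 of 47 members, against 0.033%, 0.22% and 0.0989% of symbols. No member of one family held the word of another, on either strand. The first 4 genes of each family that hold it, in chromosome order, are shown with the word in capitals:
PCDHA1 at chr5:140165671-140165700: attggccacaTGATGTCGCTgtacaccaca
PCDHA2 at chr5:140174366-140174395: tttagccacaTGATGTCGCTgtccaccata
PCDHA3 at chr5:140180579-140180608: tttagccacaTGATGTCGCTgtccaccaca
PCDHA4 at chr5:140186564-140186593: tggagccacaTGATGTCGCTctttaccaca
PCDHB2 at chr5:140474130-140474159: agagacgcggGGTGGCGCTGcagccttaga
PCDHB3 at chr5:140479978-140480007: gcgaacgcatGGTGGCGCTGttgactaaga
PCDHB4 at chr5:140501306-140501335: caagacgcagGGTGGCGCTGcaggctaagt
PCDHB5 at chr5:140514762-140514791: taggacgcctGGTGGCGCTGcaggctaaga
PCDHGA1 at chr5:140709972-140710001: aggactgtggGCGCCGCTGTtcactaatct
PCDHGB1 at chr5:140729594-140729623: caacctctggGCGCCGCTGTcgaccaaaag
PCDHGA7 at chr5:140762218-140762247: aggactcacaGCGCCGCTGTtcaccaacca
PCDHGB4 at chr5:140767186-140767215: ctgactctggGCGCCGCTGTtggccaaagt
The window of PCDHB9 lies before the second of its split frames and so inside the gene.

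The families other than the C-type ones were far apart in coding sequence and closely related within. Identity was taken as the share of bases of the longer coding stretch left unchanged by the fewest edits that place it in the other first exon. The median over pairs was 79.9% among the 13 alpha genes, 79.3% among the 18 beta genes, 75.6% among gamma A and 73.1% among gamma B genes. It was 57.0% for the alpha C-type pair and 57.3% among gamma C-type genes. Between gamma A and gamma B genes it was 59.6%, and between alpha and beta genes 56.9%. The closest relative was in the same family for 53 of 55 members. The exceptions were the C-type genes PCDHAC2 and PCDHGC3. PCDHAC2 reached 58.4% with PCDHGC5, and a gamma A gene was tied at that value. PCDHGC3 was closest to PCDHAC2 at 58.2%. The 5 C-type genes had no relative above 60.1%, and PCDHB1 none above 60.9%. Pairs of different families reached similar values, up to 58.3% between alpha and beta genes and 61.2% between gamma A and gamma B genes. What unrelated sequence scores by this measure is not given here, so the closest relatives of the C-type genes and PCDHB1 are poorly resolved.

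Some pairs were much more alike. PCDHB8 and PCDHB13 were 93.9% identical, PCDHB9 and PCDHB10 92.8%, PCDHB11 and PCDHB12 91.2%, PCDHA6 and PCDHA8 90.5%, PCDHA7 and PCDHA9 88.6% and PCDHGB4 and PCDHGB5 84.9%. Only PCDHB9 and PCDHB10, and PCDHB11 and PCDHB12, are direct neighbours among these pairs. Reads from such stretches cannot always be assigned to 1 gene. The 50-base words of each first exon were sought in all other first exons of the clusters. For this count the pseudogene names PCDHB19P and PCDHGB8P were included among the others. The share found elsewhere was 46.2% in PCDHB8, 34.3% in PCDHB13, 32.4% in PCDHA6, 32.3% in PCDHA7 and 31.9% in PCDHB10. The share was over 10% in 32 of 55 genes. It was 0 in 7 genes, namely the 5 C-type genes, PCDHB1 and PCDHGB3. With 100-base words the share was over 10% in 13 genes, with a maximum of 26.0% in PCDHB8. The length of the reads was not given in the labels.

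The shared exons add to this. They made up 41.9% (PCDHA11) to 54.9% (PCDHA5) of the bases of the longest spliced model in the alpha cluster, and 39.6% (PCDHGA8) to 47.6% (PCDHGB4 and PCDHGB5) in the gamma cluster. In the short PCDHGC3 model they made up 93.8%. Reads that fall wholly in those bases name the cluster but not the gene. The assembly placed all 15 alpha names in 1 locus with 16 start site groups, and all 22 gamma names in 1 locus with 22. A value summed per locus adds 15 or 22 genes together, and a start site group holds 1 gene. Whether reads of these libraries could be assigned to single genes was not tested.

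**Figure D3:**
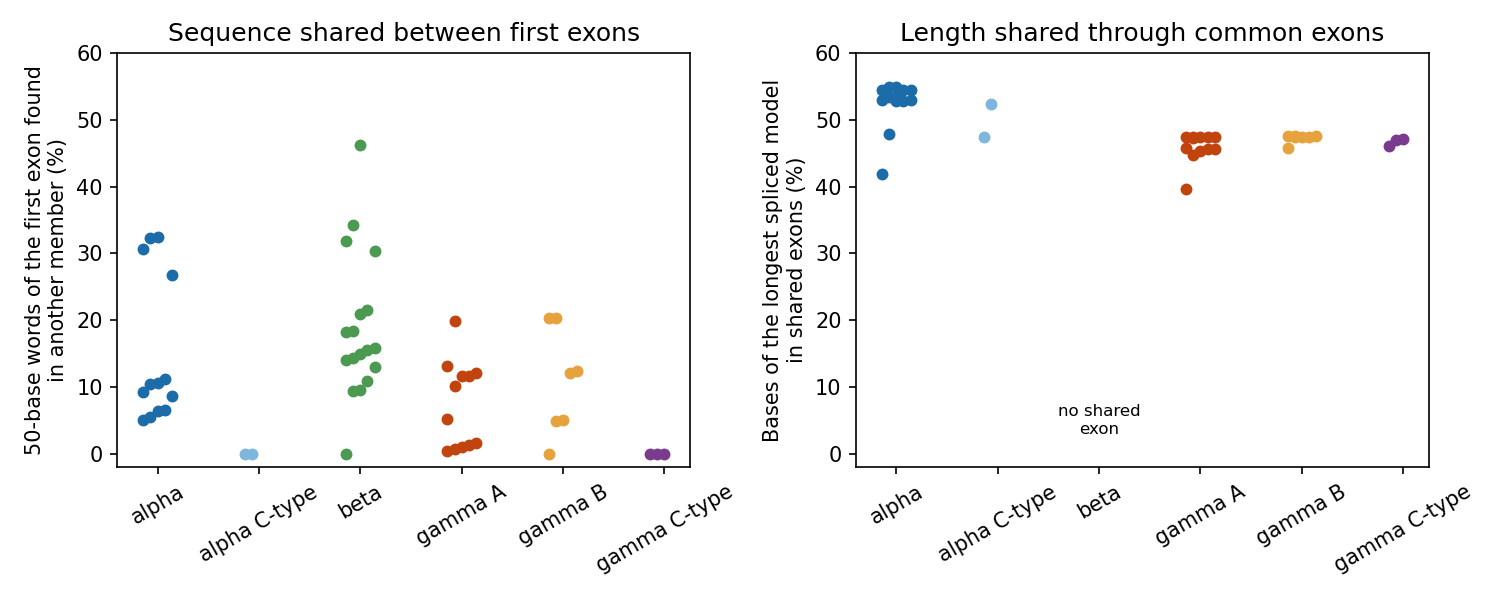
Left, share of the 50-base words of each first exon that occur in another member, PCDHB19P or PCDHGB8P, in percent, by family. Right, share of the bases of the longest spliced model that lie in the shared exons, in percent. Points are genes. C-type genes lie at 0 on the left, and beta genes have no shared exon on the right.

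In CpG content the alpha genes other than the C-type genes lay above all other members, while the beta, gamma A and gamma B genes overlapped. The ratio of observed to expected CpG dinucleotides in the coding part of the first exon was 0.866 to 0.942 in the 13 alpha genes, all above the median of 0.544 for the longest frames of 19079 other coding genes. The range was 0.472 to 0.760 in beta genes (median 0.696), 0.466 to 0.827 in gamma A genes (median 0.691) and 0.636 to 0.751 in gamma B genes (median 0.739). PCDHGC4 and PCDHGC5 had 0.410 and 0.379, PCDHAC2 had 0.488 and PCDHB1 had 0.472 and PCDHGA9 had 0.466, all below that median. PCDHAC1 had 0.569 and PCDHGC3 had 0.719. CpG dinucleotides are the main site of DNA methylation, which is known to mark silent protocadherin promoters and first exons. Methylation was not measured here. GC content varied less, from 48.4% in PCDHB1 to 59.3% in PCDHA9 among frames that are not split, against a median of 52.7% in the other genes.

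No member had a joined model, the term used here for an assembled model (class code j) that has at least 1 splice junction of a RefSeq transcript but a chain of introns found in none. All 98 member models were exact matches to RefSeq transcripts and bore RefSeq names as their original identifiers. The match and the layout described above thus come with the annotation and are not a result of these libraries. Of the 37 names with a multi-exon transcript, 0 had a joined model (upper exact 95% limit 9.49%), against 12.4% of the 21516 multi-exon gene names of the file. Names of 1 cluster share a locus, so they are not independent, and the interval covers counting error only. The clusters are among the largest loci of the file. The gamma locus ranked the second with 46 RefSeq transcripts and the alpha locus the third with 34, and they ranked the first and the second in start site groups among loci of over 10 transcripts. Of the 120 loci with over 10 RefSeq transcripts, 80% had a joined model.

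The chains open to such models were also counted. A further chain was counted for each way to connect annotated introns through annotated inner exons, from an annotated first intron to an annotated last one, that no RefSeq transcript already has. The gamma locus had 24 distinct chains and 0 further ones, and the alpha locus had 19 and 0. In the whole file 0.642% of the 17906 loci with no further chain had a joined model, and 63.4% of the 4265 loci with at least 1. Of the 5237 joined models, 91.8% were such further chains, so the count and the presence of joined models are linked by construction. Among loci with over 10 transcripts, 8 had no further chain, and 1 of these, BDNF, which encodes a neuronal growth factor, had a joined model. BDNF was named after its values were seen. The UGT1A cluster, in which 9 names for enzymes that conjugate bilirubin and drugs share 4 later exons, was alike in this respect, with 10 distinct chains, 0 further ones and 0 joined models. Its first exons were shorter, 146 to 1000 bases.

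**Figure D4:**
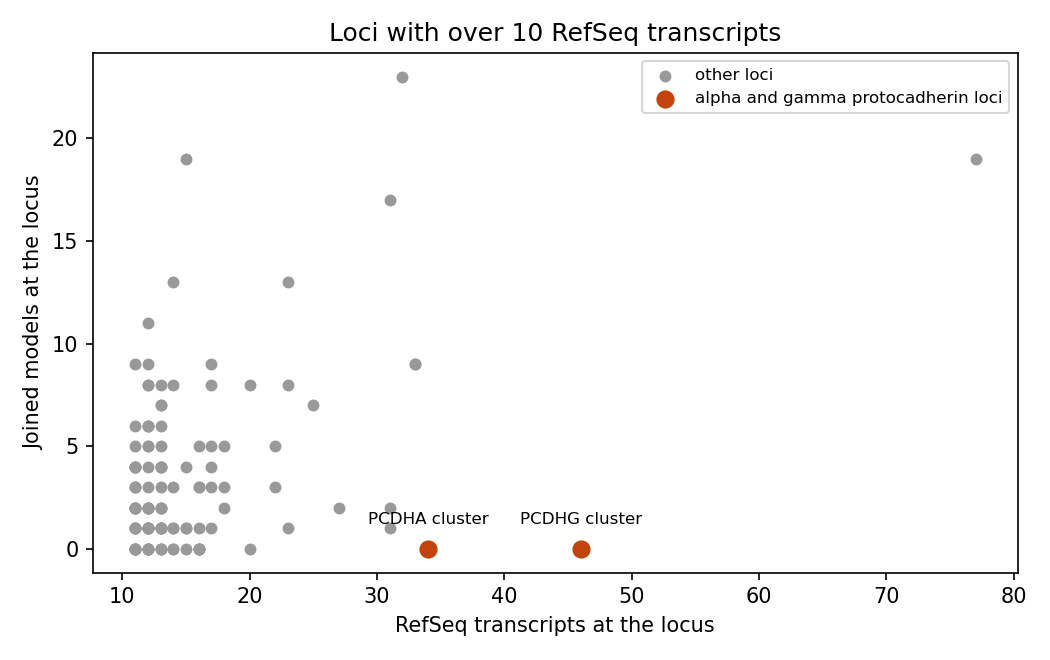
Number of joined models against the number of RefSeq transcripts for the loci with over 10 RefSeq transcripts. The alpha and gamma protocadherin loci (PCDHA and PCDHG clusters), with 34 and 46 transcripts, lie at 0 joined models.

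All 43 intron chains of the members were also present in GENCODE. The share over all chains of the file is not given here, so this count is not read as a trait of the members. GENCODE listed 2 to 8 transcripts for the alpha and gamma genes, with the most at PCDHGC3 (8) and PCDHAC2 (5). Joined models were present among related genes outside the clusters. Of 18 other protocadherins and cadherin-related genes, 3 had one, including PCDH11X, a protocadherin gene of the X chromosome, with 7. Of 23 further cadherins 4 had one, including CDH18 with 4. Of 18 genes known for the structure or silencing of the clusters, among them CTCF and cohesin subunits, 3 had one. Of 23 genes for binding partners and signalling of the cytoplasmic part, 8 had one, led by ABI1, an actin regulator, with 5. The share of names with one was 16.7%, 17.4%, 16.7% and 34.8% in these lists, beside 12.4% of all multi-exon names. The lists are small, no test was made, and nothing particular to a list is read from these shares.

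Other genes lay within the span of the clusters. The names PCDHB19P (140619689 to 140624312) and PCDHGB8P (140805853 to 140807825), left out as pseudogenes, had 1 exon each and loci of their own. PCDHGB8P lay inside the first introns of the gamma genes upstream of it. SLC25A2, a mitochondrial ornithine carrier gene, and TAF7, a general transcription factor gene, were single-exon genes on the minus strand in the gap before the gamma cluster. The non-coding LOC101926905 ran over PCDHB1 on the minus strand from 140425790 to 140457609. No exon of these 5 genes overlapped a member's exon.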

How the data were processed

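The authors deposited 1 merged transcript file for the 6 libraries. Per the labels and the file's tags, it lists where each exon begins and ends, and none of its 555595 lines holds a count, score or abundance. The submitters' processing notes name TopHat2, Cufflinks and hg19 with no version, and no source used here gives their settings. The planned fit of expression (limma) therefore could not be run, and depth is unknown. Groups were taken from sample titles.

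Models were rebuilt with Python 3.11.15, scipy 1.17.1, numpy 2.4.6, edlib 1.3.9.post1 (identity) and matplotlib 3.10.9. Sequence was read from GRCh37, the build called hg19 in the notes, and a frame is the longest run from ATG to stop. An intron chain counted as present in GENCODE (release 44, mapped to GRCh37) when all its introns matched exactly. The RefSeq promoter table (GRCh38.p14) matched 47 of 55 names by symbol. Limits of shares are exact Clopper-Pearson at 95%. Frame finding and chain counting were tested on simulated data. Values are given by rule for members with over 2 models, C-type genes, and the longest, shortest and end members of each family, and for listed genes with at least 3 joined models. Other members named for an extreme or a pattern were picked once their values were known. The members and lists were chosen with earlier results of these data known.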

Additional observations from a re-analysis of the deposited data

How the results depend on the processing

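No paired analysis was possible because the deposited file has positions only and nothing measured per library. For the same reason the expression fit, its replicate block and fits without single libraries were not run. The number of names (55) was 57 with pseudogene names and 50 without C-type genes. The 98 models, the 42 models ending in shared exons and the 0 names with a joined model did not move under the 2 alternatives tried for each. The share of all multi-exon names with a joined model was 12.4% also on chromosomes 1 to 22, X and Y alone. The count of promoters with the planned motif was 1, also on the sense strand and in the window before the ATG, and became 46 with the core CGCT. With the 10-base words chosen after seeing the data it was 29 in the promoter table and 31 before the ATG. The number of genes with over 10% of shared words fell from 32 with 50-base words to 13 with 100-base words, an alternative also chosen after seeing the data; longer words need longer identical stretches. Without read counts, no statement on expression can be made.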
